A study of Rattus norvegicus with 40 samples.

Results

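The genes described here encode immediate early transcription factors: Fos, Jun, Junb and Atf3, whose proteins pair with one another on DNA, the zinc-finger factor Egr1, the orphan nuclear receptor Nr4a1, and Myc. Btg2, an antiproliferative cofactor, was also looked for, but no probe set carried its symbol alone. A probe set is a group of short probes read as one value. All 18 probe sets annotated with exactly 1 of these symbols were taken, out of 8740 that were no controls. They covered 7 of the 4736 genes named on the array, and 15 of them passed a filter on dim values and were tested: 4 for Egr1, 3 for Jun, 2 each for Junb, Fos and Nr4a1, and 1 each for Atf3 and Myc. The other 3, Fos X06769cds_at, Jun X17163cds_s_at and Myc Y00396mRNA_at, were among the 2913 probe sets too dim for the tests. The rule that takes a probe set uses its symbol alone, and the genes were picked with earlier results of these data known.

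Immediate early genes are switched on when a growth factor, stretch or wounding reaches a resting cell, because the proteins that drive them are already present and need only be activated. Their transcripts and proteins are short-lived, and the proteins then bind the promoters of later genes for division, migration, inflammation and matrix. In arteries they are known as part of the response of smooth muscle cells to balloon injury in the hours that follow it. The earliest arteries of this study were taken on day 1, so those hours were not sampled.

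Common carotid arteries came from male Wistar-Kyoto rats aged 3 months. The left artery was injured with a balloon catheter, which strips the inner lining and stretches the wall, and its outer side was then coated with plain pluronic gel or with gel holding recombinant tPA (tissue plasminogen activator, a protease that makes plasmin) at 20 nmol/kg. Injured left arteries and uninjured right arteries of both treatments were collected on day 1 or day 4, with 3 arrays in each of these 8 groups. The uninjured comparison groups were left arteries of sham-operated rats, 4 arrays for day 1 with 6 for day 4, and of intact rats (6 arrays). Gel was present in every injured artery, and the right arteries came from rats whose left artery carried gel or tPA. Each array held RNA pooled from the vessels of 3 rats, so p-values measure only the spread between such pools, and the number of arrays limits the precision. The labels do not say whether left and right pools share rats.

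Values are deposited intensities, which are linear and carry no unit. The 40 arrays had been brought to nearly one trimmed mean (500.3 to 500.8), with medians from 103.2 to 168.3. Smooth muscle markers were present in every group, with a summed intensity over 5 of 7 markers from 10587 to 33519. Each array was scored on 624 probe sets that rose and 514 that fell with injury under gel, without the genes described here, to give an injury index. It lay from 1.261 to 1.942 in left gel arrays and from -1.371 to 0.099 in sham, intact and right gel arrays. The split of left gel from sham arrays is fixed by its construction, and the place of intact and right gel arrays is not. By this index 4 arrays went against the side on their labels. On day 1 the second right tPA array scored 1.335 and the second left tPA array -0.203. On day 4 the first right tPA array scored 1.325 and the first left tPA array -0.728. Calls that involve tPA are given with and without these 4 arrays, since a direction drawn from them rests on the labels. Such fits leave out all 4 together, so the shared estimate of the spread changes as well. The arrays were picked by the index itself, so leaving them out can widen differences between injured and uninjured arteries by selection. Smaller p-values in those fits are therefore no independent support. Some arrays of day 1 were closer than usual: the SD of log2 differences over all tested probe sets was 0.45 for left gel replicates 1 and 3, 0.489 for sham replicates 1 and 2 and 0.532 for sham replicates 3 and 4, against a median of 0.838 over 60 pairs within groups. Whether these pools were independent was not tested. In bulk RNA, fewer cells of a type and less RNA per cell cannot be told apart.

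Differences below are first group minus second on the log2 scale, with the standard error (SE) and the p-value of limma, adjusted over the 5827 probe sets tested and called under 0.05. Across all 11 groups, 3 of the 15 probe sets tested varied (26.1% of all tested probe sets did): Myc (adjusted p = 0.00767), Egr1 U75398_s_at (0.0277) and Egr1 AF023087_s_at (0.0471). Without the 4 arrays these were joined by Jun rc_AA944014_at (0.00329) and Jun rc_AA945867_at (0.0183). Among the comparisons of injured with sham arteries, Myc was the only one of these genes called higher. Jun, Fos and Egr1 each had 1 probe set that fell against sham arteries, a second Egr1 probe set rose from day 1 to day 4, and Junb, Atf3 and Nr4a1 had no call in any comparison of groups.

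Myc, a factor that drives growth and entry into the cell cycle with its partner Max, was read by Y00396mRNA_g_at. The left tPA arrays on day 1 had intensities of 528, 224 and 335. Left gel arrays on day 1 had 178.5, 141 and 231.5, and the 4 sham arrays of that day had 60.4, 59.6, 71.6 and 84.9. All 6 injured arrays of day 1 thus lay above all 4 sham arrays, and the tPA and gel arrays overlapped. Right arteries on day 1 had 106, 61.2 and 248 with gel and 78.1, 199.5 and 84.8 with tPA, where the 199.5 belongs to an array that stands apart. The 248 came from right gel replicate 3, which lay above every left gel array of that day.

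By day 4 the Myc intensities were 101, 147 and 149.6 in left gel arrays and 115.3, 114.7 and 261 in left tPA arrays. Sham arrays on day 4 ran from 61.3 through a median of 108 to 123, and intact arrays from 50.0 through 79.2 to 149.9. Both left groups of day 4 overlapped the sham group. Right arteries on day 4 had 81.7, 42.2 and 87.1 with gel and 318, 69.7 and 89.8 with tPA, where the 318 belongs to an array that stands apart. Ranked by mean log2 intensity, left tPA day 1 came highest (8.41 ± 0.62 SD, n = 3) and left gel day 1 next (7.49 ± 0.36 SD, n = 3). This gap of 0.92 was larger than either SD, whereas the gaps between all later neighbours in the order were not. Right gel day 4 (6.07) and sham day 1 (6.10) came lowest.

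**Figure D1:**
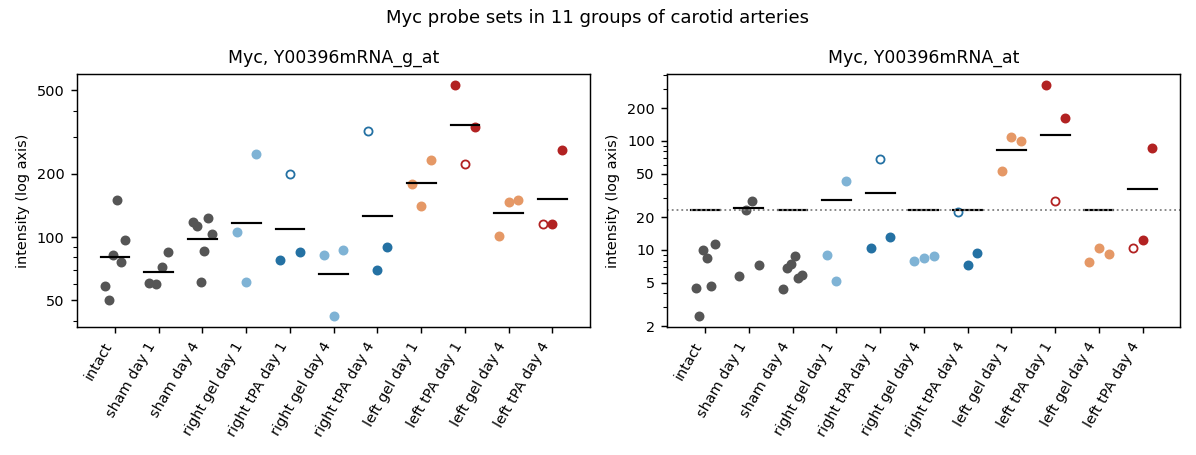
Intensity of the 2 Myc probe sets on a log axis, 1 point per array, in the 11 groups. Bars are means of log2 intensity after values below 23.3 (dotted line, right panel) were raised to it, and open points are the 4 tPA arrays that stand apart from their labels. On day 1 the left gel and left tPA arrays sit above the sham arrays in both panels, with the lowest left tPA array at 28.2 against a highest sham value of 28.3 as the exception on the right.

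Myc rose 4.98-fold in left tPA over sham arteries on day 1 (log2 difference 2.32, SE 0.46, adjusted p = 0.0067). In that comparison 2 of the 15 probe sets were called, Myc upward and Jun rc_AA945867_at downward, against 4.43% of all tested probe sets. Without the arrays that stand apart the Myc difference was 2.62 (adjusted p = 0.000101), and it stayed past the threshold without each of the 7 arrays in turn (2.00 to 2.62). The left gel difference from sham on day 1 was 1.40 (SE 0.46, adjusted p = 0.0967), which missed the threshold. It passed without the 4 arrays (adjusted p = 0.0214), where the difference is the same and the estimate of the spread is not. Left tPA and left gel share the sham arrays as reference. The direct difference of tPA from gel in the left artery on day 1 was 0.92 (95% interval -0.08 to 1.93, adjusted p = 0.415).

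Left over right arteries within the tPA rats on day 1 gave a Myc difference of 1.63 (SE 0.49, adjusted p = 0.186). Without the arrays that stand apart it was 2.37 (adjusted p = 0.00333), but these were picked by the injury index, which can itself widen this difference. With all arrays kept, all 3 left arrays lay above all 3 right ones. Within left tPA arteries Myc was lower on day 4 than on day 1 by 1.17 on the log2 scale, which missed the threshold with all arrays (adjusted p = 0.264) and without those that stand apart (-1.28, adjusted p = 0.162). The change of the gel injury difference from day 1 to day 4 was also tested, and no probe set of the 15 passed (2.42% of all did; 4 of 15 at an unadjusted p under 0.05, against 13.6%). Myc was not among these 4.

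The second Myc probe set, Y00396mRNA_at, was dim. Its intensity was below the floor of 23.3 on 30 of 40 arrays, and below it on all intact, sham day 4, right gel day 4, right tPA day 4 and left gel day 4 arrays. Of the 10 arrays above it, 6 were injured ones of day 1, with 53.0, 108 and 99.7 in left gel and 323, 28.2 and 161 in left tPA arrays. Sham day 1 arrays had 5.8, 23.1, 28.3 and 7.3. In a fit of all probe sets without the filter, it was higher in left tPA than in sham arteries on day 1 by 2.22 (SE 0.48, adjusted p = 0.0156), and in left gel by 1.76 (SE 0.48, adjusted p = 0.05002). Both probe sets were designed to one transcript, so they are no independent measures.

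Few markers of blood cells were called on day 1. In left gel against sham arteries 1 of 6 macrophage, 1 of 3 neutrophil and 0 of 4 leukocyte markers rose, and in left tPA arteries 1 of 6, 0 of 3 and 0 of 4. The summed intensity of 6 of 7 macrophage markers was 12393 to 14031 with gel and 9390.4 to 20133 with tPA in left arrays of day 1, against 6091.5 to 6976 in sham arrays. That of 3 of 6 neutrophil markers was 337.2 to 3249.2 and 202.4 to 5809.4, against 100.2 to 218.1. The sums of 4 of 5 leukocyte markers overlapped those of sham arrays (808.6 to 1115.1), at 628.5 to 2858.1 with gel and 634.8 to 4892.4 with tPA. No tested marker of these lists was at the floor on all arrays of any group. The summed skeletal muscle markers (6 of 8) were 18370 to 32961 in left gel and 2669.8 to 3963.7 in sham arrays of that day. The genes most like Myc over the 40 arrays were Ccr1 (Pearson's r = 0.802), a chemokine receptor of leukocytes, Cd14 (0.799), a lipopolysaccharide co-receptor of monocytes, and Neurl3 (0.784). These points share arrays, scaling and groups. What part these cells have in the Myc values was not tested.

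Jun and Fos form the classical AP-1 dimer, which binds DNA and turns on growth and matrix genes. Jun rc_AA945867_at read 1498, 1553, 1876 and 1606 in sham arrays on day 1. Left gel arrays of that day read 787, 311.5 and 752, and left tPA arrays 381, 477 and 795.5. All 6 injured arrays lay below all 4 sham arrays. Right arteries on day 1 read 850.3, 898 and 1138 with gel and 717, 1027 and 883 with tPA, also below every sham array. Intact arteries ran from 531 through 1077 to 1627 and overlapped the sham arteries of day 1, which were the highest group by mean.

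Jun rc_AA945867_at fell 2.86-fold in left gel against sham arteries on day 1 (log2 difference -1.52, SE 0.43, adjusted p = 0.0416), the only call among the 15 there (3.12% of all tested probe sets). It fell 3.1-fold in left tPA arteries (-1.63, SE 0.43, adjusted p = 0.0234), and the difference was -1.56 without the 4 arrays that stand apart (adjusted p = 0.0119). The left gel call did not survive the loss of any 1 of its 7 arrays. Without sham replicates 1 to 4 the adjusted p was 0.0777, 0.0843, 0.104 and 0.0806. Without left gel replicates 1, 2 and 3 it was 0.0541, 0.3 and 0.0627, and the difference without replicate 2 was -1.08. The left tPA call was lost without sham replicate 2 or 3 (0.0565 and 0.0652) or left tPA replicate 1 or 3 (0.107 and 0.0535). The sham arrays of day 4 read 517 to 1250.1 (median 934), and the left gel against sham difference on day 4 was -0.24 (SE 0.39, adjusted p = 0.758).

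The other Jun probe sets did not follow one order. Jun rc_AI175959_at read 888, 245 and 1051 in left gel arrays on day 1, where sham arrays read 2186, 2227, 1063 and 905.5, and the groups overlapped. Its difference was -1.27 (SE 0.43, adjusted p = 0.106), and from right gel arteries, which it did not overlap, -1.49 (SE 0.46, adjusted p = 0.101). Left gel replicate 2 was the lowest of its group in both of these Jun probe sets. It also had the highest summed skeletal muscle markers of that group, 32961 against 18427 and 18370. Their part in its low Jun values was not tested. Jun rc_AA944014_at was instead lowest in sham arteries of day 1, at 105.5, 94.9, 73.1 and 124.9, below all left gel arrays (133, 194 and 169.8) and all intact arrays (142 to 320.1). Its differences were 0.74 for left gel over sham (adjusted p = 0.555), -1.15 for sham day 1 over intact (0.271) and 1.27 for sham day 4 over day 1 (0.0688). Without the 4 tPA arrays, which lie in none of these groups and enter through the shared spread, the last 2 passed (0.0155 and 0.00500). Jun X17163cds_s_at lay below the floor on 20 arrays, all 6 left gel arrays among them.

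Fos, the AP-1 partner that cannot dimerise with itself, had 2 probe sets in the tests. Fos X06769cds_g_at read 466, 625 and 606.5 in left gel arrays on day 4, against 696 through a median of 1055 to 1887 in the 6 sham arrays of that day. The groups did not overlap. Left tPA arrays on day 4 read 1239, 531 and 633, where the 1239 is an array that stands apart and the other 2 lay below all sham arrays. On day 1 left gel arrays read 735, 528.5 and 779, left tPA arrays 453, 830.2 and 800.0, and sham arrays 944.5, 826, 1029 and 929. Intact arteries ran from 498 through 655 to 1144.

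Fos X06769cds_g_at fell 1.92-fold in left gel against sham arteries on day 4 (log2 difference -0.94, SE 0.30, adjusted p = 0.0227). With Egr1 AF023087_s_at it made 2 calls of 15 in that comparison, where 19.2% of all probe sets were called, so the share is near that of the table. The call was lost without sham replicate 2 (-0.78, adjusted p = 0.0597), left gel replicate 1 (-0.81, 0.130) or left gel replicate 3 (0.0505). The left tPA difference on day 4 was -0.53 over all arrays and -0.90 without the 4 arrays that stand apart (adjusted p = 0.0387). The right gel arrays of day 4 read 675, 808 and 766 and those of day 1 685, 717 and 634.

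The second tested Fos probe set, X03347cds_g_at, was lowest in left gel arrays of day 1, at 117, 41.7 and 108, below all sham arrays of that day (177.6, 134.6, 189 and 183.5). The difference of -1.07 (SE 0.39) missed the threshold (adjusted p = 0.14). The 41.7 came from replicate 2, the left gel array of day 1 with the highest skeletal muscle sum. Left tPA arrays read 126, 229.9 and 194, all above the gel arrays, with a difference of 1.14 from them (95% interval 0.29 to 1.98, adjusted p = 0.233). Fos X06769cds_at, too dim to be tested, read 126, 144, 102 and 72.1 in sham arrays of day 1, above all intact arrays (18.5 to 68.4) and above all left gel arrays (39.0, 44.9 and 28.1). A fit without the filter gave 1.75 for sham day 1 over intact (SE 0.51, adjusted p = 0.153). Across the 40 arrays the tested Fos pair had Pearson's r = 0.696, the highest among the 12 pairs of probe sets for one gene.

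**Figure D2:**
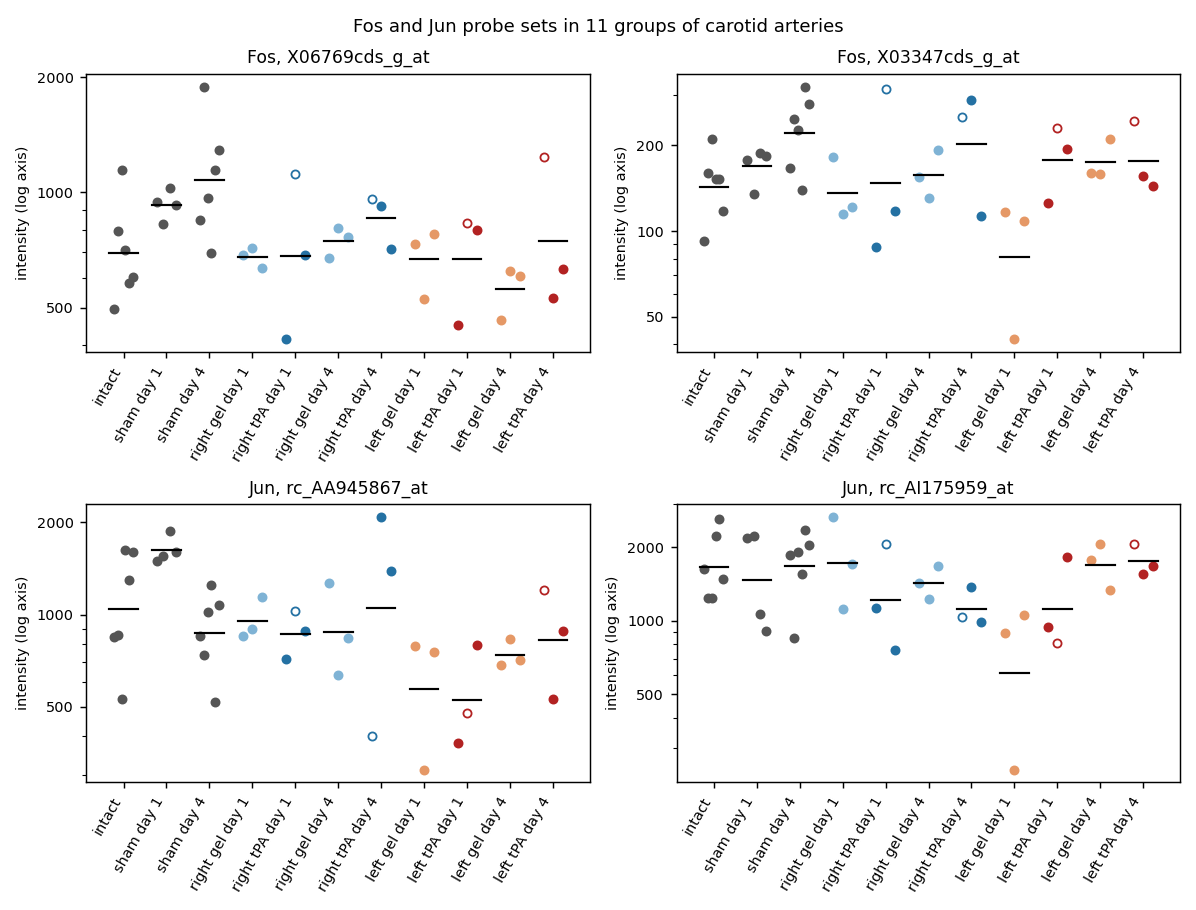
Intensity of 2 Fos and 2 Jun probe sets on log axes, 1 point per array, with bars at the mean of log2 intensity and open points for the 4 tPA arrays that stand apart. Jun rc_AA945867_at sits from 1498 to 1876 in sham arrays on day 1 and at or below 795.5 in injured arrays of that day, and Fos X06769cds_g_at sits at or below 625 in left gel arrays on day 4.

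Junb, an AP-1 member that often restrains Jun, made no call. Junb X54686cds_at read 184, 226 and 151 in left tPA arrays on day 1. Left gel arrays read 68.1, 92.5 and 138 and sham arrays 91.5, 111, 85.0 and 117.5. All left tPA arrays lay above all arrays of both other groups. The tPA minus gel difference was 0.95 (95% interval 0.24 to 1.66, adjusted p = 0.235), and 0.81 without the 4 arrays that stand apart (adjusted p = 0.362). On day 4 left gel arrays read 177, 191 and 164, left tPA arrays 175, 224 and 119, and sham arrays 59.7 through 143 to 182.5. The other probe set, rc_AA891041_at, spread widely within groups, from 37.4 to 310.5 in left gel arrays on day 1 and from 34.5 to 219 in intact arrays.

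Atf3, a stress-induced factor that binds the same DNA family and can repress it, was lowest in intact arteries. Atf3 M63282_at ran from 227.5 through 332 to 349.8 there, below all sham arrays of day 1 (355, 424.5, 549.8 and 456.5) and of day 4 (398 through 606 to 1786). The difference of sham day 4 over intact was 1.14 (SE 0.35, adjusted p = 0.196), which missed the threshold. In that comparison 0 of 15 probe sets passed limma's adjusted threshold (0.378% of all did) and 4 had an unadjusted p under 0.05 (10.1% of all). In order of mean log2 intensity, intact was last (8.26 ± 0.25 SD, n = 6) and sham day 1 next to last (8.78 ± 0.26 SD, n = 4), a gap of 0.53 that exceeded both SDs. Left gel arteries overlapped the sham ones, with 486, 570.3 and 509 on day 1 and 535, 639.8 and 594 on day 4. Left tPA arrays read 300.3, 971 and 508 on day 1 and 1324.5, 620.0 and 673 on day 4, and the array at 300.3 lay below every sham array and within the intact range. In 3 of the 4 arrays that stand apart, Atf3 was the highest value of its group.

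**Figure D3:**
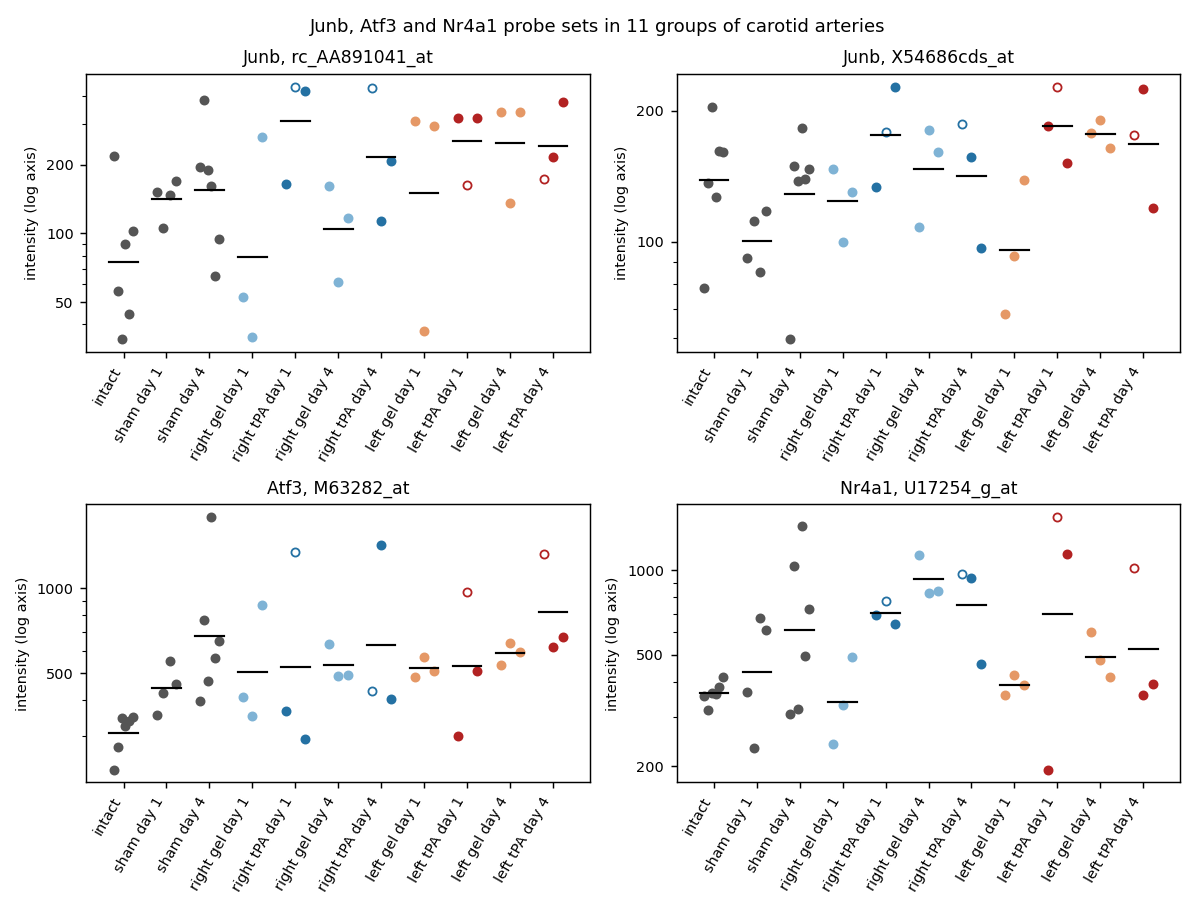
Intensity of 2 Junb probe sets, Atf3 and 1 Nr4a1 probe set on log axes, 1 point per array, with bars at the mean of log2 intensity and open points for the 4 tPA arrays that stand apart. Intact arrays of Atf3 (227.5 to 349.8) sit below all sham arrays, and Nr4a1 in right gel arteries sits at 827 or above on day 4 and at 489 or below on day 1.

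Egr1, a zinc-finger factor that turns on growth factor, tissue factor and matrix genes in the injured vessel wall, had 4 probe sets whose patterns differed. Egr1 AF023087_s_at was highest in sham arteries of day 4, from 7071 through 10781 to 13406. It was among the brightest probe sets of the array, at percentile 99.9 of mean log2 intensity, where the other Egr1 probe sets lay at 76.4, 55.7 and 47.6. Left gel arrays of day 4 read 5516, 5274 and 7328, right gel arrays 5067, 6380 and 5366, and left tPA arrays 7801, 4454 and 3981, where the 7801 stands apart. Right gel arrays all lay below all sham arrays, while 1 left gel and 1 left tPA array lay above the lowest sham array. Intact arrays ran from 6744.5 through 7586 to 10009.8, and 5 of the 6 sham arrays of day 4 exceeded the intact median.

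Egr1 AF023087_s_at fell on day 4 against sham in left gel (log2 difference -0.79, SE 0.27, adjusted p = 0.0365), in left tPA (-0.995, SE 0.27, 0.0263) and in right gel arteries (-0.89, SE 0.27, 0.0341). The left tPA comparison called 1 of 15 (5.87% of all) and the right gel comparison 1 of 15 (8.82% of all). Right tPA arteries differed by -0.80 (SE 0.27, adjusted p = 0.119), and by -0.83 without the 4 arrays that stand apart (adjusted p = 0.31). The 4 comparisons share the 6 sham arrays. After quantile normalization, which gives every array the same distribution, the first 3 differences were -0.24, -0.37 and -0.19, and none passed (adjusted p = 0.421, 0.26 and 0.567). Without the arrays that stand apart, left tPA differed by -1.29 (adjusted p = 0.00272).

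These calls also depended on single arrays. The left gel call was lost without sham replicate 2, 5 or 6 (adjusted p = 0.0685, 0.0723 and 0.0629) or left gel replicate 1 or 2 (0.136 and 0.155). The left tPA call was lost without its replicate 2 (0.158) or 3 (0.271). The right gel call was lost without sham replicate 2, 5 or 6 (0.0654, 0.0709 and 0.0606) or without any of its own 3 arrays (0.131, 0.058 and 0.155). The summed smooth muscle markers were lower too, at 11455 to 14367 in left gel and 18706 to 33519 in sham arteries of day 4. The 4 leukocyte markers tested summed to 3316.1 to 3594 and 131.4 to 389.7. The ratio of 3' to 5' beta-actin control intensity, a sign of RNA length, ran from 7.38 to 8.09 in left gel, from 11.68 to 13.61 in right gel and from 11.83 to 23.69 in sham arteries of day 4. The part of these in the result was not tested. The genes most like this probe set over 40 arrays were Rpl31 (r = 0.874), Oaz2 (0.872) and Pea15 (0.871), and its r with Egr1 M18416_at was -0.019.

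Egr1 M18416_at was instead highest in the sham arteries of day 1, at 1249, 1344, 923 and 842. Intact arteries read 327 through 386 to 475, left gel arteries of day 1 308, 481 and 323, and both lay below all of these sham arrays. The difference of left gel from sham was -1.56 (SE 0.53, adjusted p = 0.109) and that of sham from intact 1.46 (SE 0.45, adjusted p = 0.14). Neither passed in the fit over all groups, and both passed when only the groups compared were fitted (adjusted p = 0.0104 and 0.00161). Left tPA arrays of day 1 read 2247, 391.6 and 339, so 1 array lay above all sham arrays and the others below them. On day 4 the groups overlapped, with 643, 441 and 527.5 in left gel, 475, 1043 and 485.5 in left tPA and 252 through 520 to 976.5 in sham arrays.

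Egr1 U75398_s_at rose from day 1 to day 4 in left gel and in sham arteries. Left gel arrays read 94.8, 107 and 117.0 on day 1 and 200.4, 214 and 215 on day 4, and the days did not overlap. The difference was 0.98 (SE 0.27, adjusted p = 0.0334), the only call of 15 (3.21% of all tested probe sets). Sham arteries read 118, 120.4, 108.5 and 147 on day 1 and 181 through 201 to 282 on day 4, with a difference of 0.80 (SE 0.21, adjusted p = 0.0283), also the only call (5.01% of all). Left tPA arrays read 144, 199.4 and 143.6 on day 1 and 281, 238.5 and 110.1 on day 4. Right gel arrays read 177, 142 and 175 on day 1 and 137, 177 and 168 on day 4, and overlapped. Right tPA arrays read 146, 170.1 and 190.4 and then 171, 249 and 142, and overlapped as well. Intact arteries ran from 108.5 through 164 to 197.

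Other values differed between the days of the left gel arteries too. The summed skeletal muscle markers (6 of 8) were 18370 to 32961 on day 1 and 1783 to 2429.5 on day 4, where 1 of the 6 was called lower. The summed adipocyte markers (4 of 6) were 2700.3 to 5072.3 and 9259.8 to 12519. The actin ratio of 3' to 5' was 13.36 to 19.39 and 7.38 to 8.09. In sham arteries the adipocyte sums were 2938.3 to 5714.6 and 2412.8 to 4849.3 and the actin ratio 16.26 to 21.11 and 11.83 to 23.69. Their part in the rises was not tested.

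Both rises of Egr1 U75398_s_at lost their call when each array was scaled to one median, with 0.69 for left gel (adjusted p = 0.127) and 0.53 for sham (0.089). That scaling lowers the median difference of all probe sets by 0.30 for left gel and 0.26 for sham between the days. Without each of the 6 left gel arrays in turn the adjusted p was 0.0674 to 0.144. The sham rise was lost without day 1 replicate 1, 2 or 3 (0.0658, 0.0797 and 0.11) or day 4 replicate 5 (0.0661). The fourth probe set, rc_AI176662_s_at, was not called. Its left gel arrays read 84.9, 82.0 and 75.0 on day 1 and 120.2, 164 and 134 on day 4, without overlap (0.78, SE 0.43, adjusted p = 0.333).

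**Figure D4:**
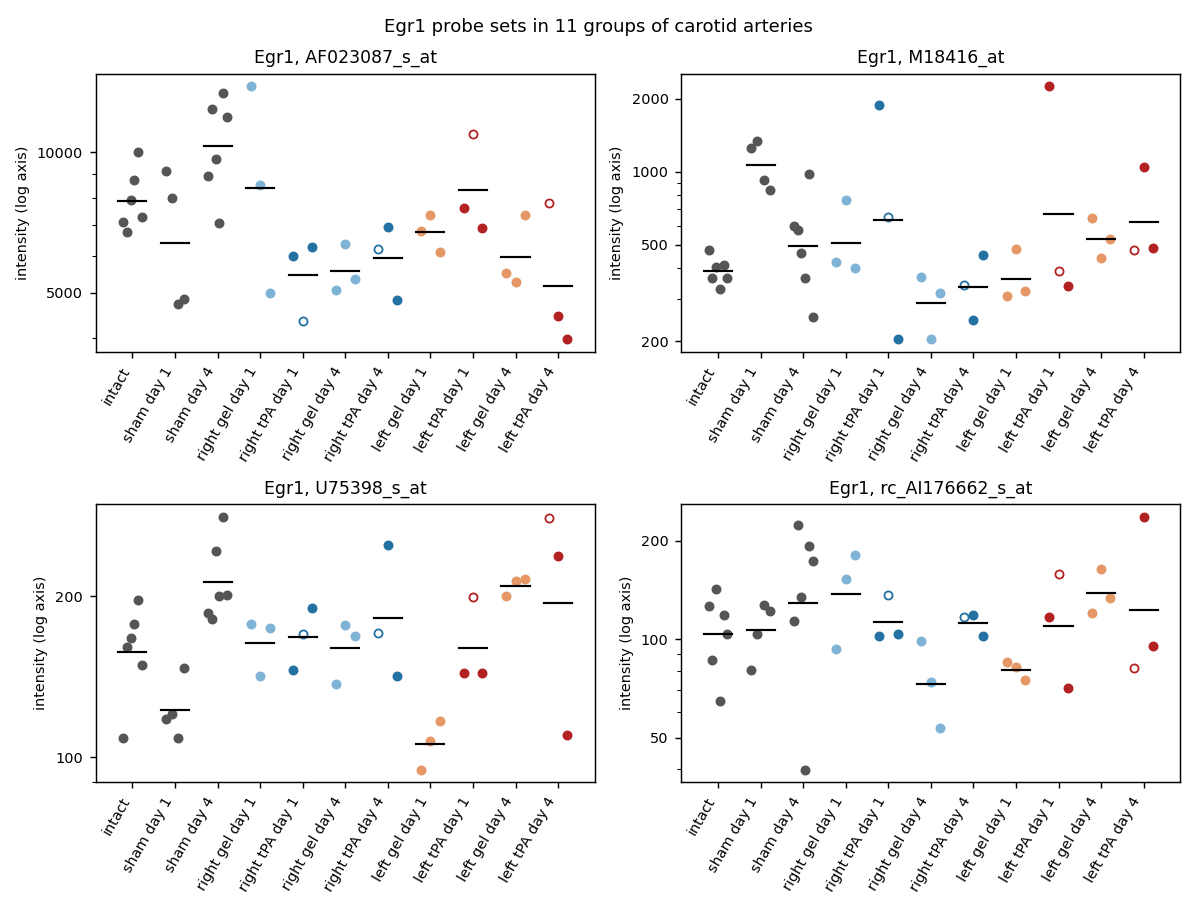
Intensity of the 4 Egr1 probe sets on log axes, 1 point per array, with bars at the mean of log2 intensity and open points for the 4 tPA arrays that stand apart. The highest group differs by probe set: sham day 4 for AF023087_s_at and U75398_s_at, sham day 1 for M18416_at and left gel day 4 for rc_AI176662_s_at.

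Nr4a1 is an orphan nuclear receptor that needs no ligand and is induced through cyclic AMP and calcium. Promoters of Egr1, Junb and Nr4a1, 3 of the 7 genes, were taken from RefSeq and searched over 250 bases before the start of transcription in build GRCr8 on both strands. That of Nr4a1 is shown because it held the most matches. Capitals mark 4 copies of TGACGCA, a variant of the cyclic AMP response element, read on the opposite strand, and 1 match to the Egr site (GCGGGGGCG or GCGTGGGCG), also on the opposite strand. No marked matches overlap.

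Nr4a1, chr7:134259888-134260137, plus strand: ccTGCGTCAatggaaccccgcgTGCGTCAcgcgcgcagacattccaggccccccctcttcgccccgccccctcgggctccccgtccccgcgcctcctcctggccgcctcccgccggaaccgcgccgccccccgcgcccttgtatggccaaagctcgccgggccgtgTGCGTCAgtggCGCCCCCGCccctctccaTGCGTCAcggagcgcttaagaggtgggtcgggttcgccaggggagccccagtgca

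The variant TGACGCA is held by 1.66% and the Egr site by 2.85% of 33469 promoters of that length. The full element TGACGTCA (1.59%) and the AP-1 site TGACTCA (4.05%) had no match in any of the 3 promoters. The Egr1 promoter held 2 CArG boxes, the site of serum response factor, which 1.497% of promoters hold, and the Junb promoter held none of the 5 motifs. These are matches of letters and no evidence of binding.

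Nr4a1 U17254_g_at read 240.3, 329.6 and 489 in right gel arrays on day 1 and 1137, 827 and 846 on day 4, without overlap, but the difference of 1.45 (SE 0.55) missed the threshold (adjusted p = 0.143). Right tPA arrays read 693.5, 777 and 643 on day 1 and 972, 939 and 464 on day 4, and overlapped. Left gel arrays read 358, 423 and 389 on day 1 and 599.7, 477 and 417 on day 4. Left tPA arrays read 194.5, 1546 and 1139.6 on day 1 and 1014, 357.3 and 392.0 on day 4, so 1 array of each group lay far from the others, and left tPA day 1 had the widest SD of all groups (1.61, n = 3). Intact arteries were tight, from 317 through 364 to 417. In sham arteries it ran from 233 to 675 on day 1 and from 308 to 1441 on day 4.

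Nr4a1 U17254_at read 147, 342 and 217.5 in left tPA arrays on day 1, against 84.6, 157 and 102 in left gel and 119.8, 31.5, 135 and 223 in sham arrays. The left tPA difference was 1.10 from sham (SE 0.39, adjusted p = 0.095) and 1.01 from left gel (SE 0.42, adjusted p = 0.301), and both groups overlapped it. The first of these passed without sham replicate 4 (1.47, adjusted p = 0.0295) and in no other of the 7 fits with 1 array left out. Without the 4 arrays that stand apart it was 0.79 (adjusted p = 0.258). Atf3 and Nr4a1 U17254_g_at had r = 0.632 over 40 arrays, the highest among 93 pairs of probe sets for different genes, whose median was 0.06.

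The effect of tPA in the injured artery was tested directly against gel. On day 1, 0 of 15 probe sets passed limma's adjusted threshold (0.120% of all tested probe sets did) and 4 had an unadjusted p under 0.05 (13.3% of all). These were Fos X03347cds_g_at, Junb X54686cds_at, Nr4a1 U17254_at and Egr1 U75398_s_at, each higher with tPA. Of the 15, 12 were above 0, with a median of 0.76 against 0.13 over all tested probe sets. The 15 stand for only 7 genes, and the size of these differences depends on the scaling. With each array scaled to one median, the median over all tested probe sets was 0.22 lower, at -0.09. Egr1 U75398_s_at fell to as low as 0.37 among the alternative settings. Apart from fits with 1 array left out, the lowest values were 0.76 for Fos, 0.73 for Junb and 0.70 for Nr4a1. Without the 4 arrays that stand apart, the differences were 0.95 for Fos, 0.81 for Junb, 0.70 for Nr4a1, 0.44 for Egr1 U75398_s_at and 1.22 for Myc, and none passed. For Jun rc_AA945867_at the difference of tPA from gel arteries on day 1 was -0.12, estimated from 3 arrays in each group, and each was lower than sham.

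On day 4 the same comparison gave 0 calls of 15 by limma (0.120% of all) and 0 at an unadjusted p under 0.05 (7.77% of all), with a median of 0.01, and also 0 calls of 15 and 0 unadjusted without the 4 arrays that stand apart. The widest interval there was that of Junb rc_AA891041_at. The change of the tPA effect between the days was tested as well, and 0 of 15 passed by limma (0.0858% of all), with 1 at an unadjusted p under 0.05 (12.5% of all), Junb X54686cds_at (-1.03, SE 0.50, adjusted p = 0.386). An adjusted p above the threshold does not show that gel and tPA arteries were alike: the 95% interval of Myc reached 1.93 on day 1.

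**Figure D5:**
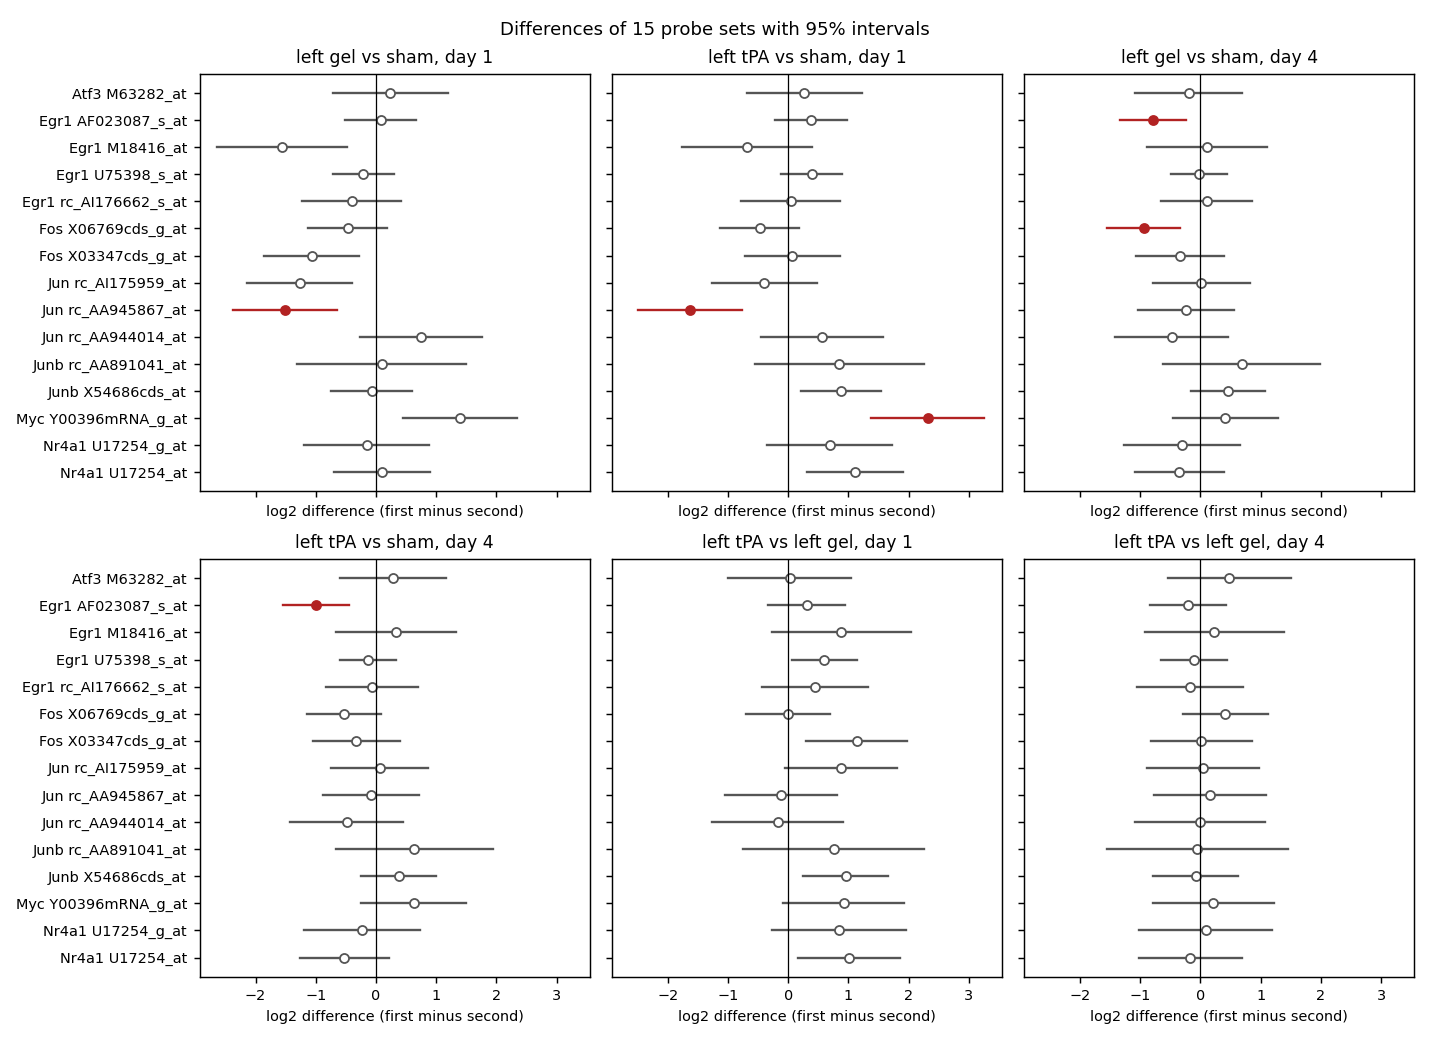
Log2 difference with its 95% interval for the 15 tested probe sets in 6 comparisons, with filled red points for an adjusted p under 0.05. Red points are Jun rc_AA945867_at on day 1 in left gel and left tPA arteries against sham, Myc in left tPA arteries on day 1, Egr1 AF023087_s_at on day 4 in both, and Fos X06769cds_g_at in left gel arteries on day 4, and the panels of tPA against gel hold none.

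Left against right arteries within tPA rats gave 0 calls of 15 by limma on day 1 (0.0172% of all; 1 at an unadjusted p under 0.05, Myc, against 9.46%) and on day 4 (0.0343% of all; 0 unadjusted, against 7.53%). Left against right arteries within gel rats gave 0 calls of 15 by limma on day 1 (0.549% of all; 3 at an unadjusted p under 0.05, against 16.3%) and on day 4 (5.10% of all; 1 unadjusted, against 17.7%). On day 1, 6 probe sets were lower in all left than in all right gel arrays and 0 higher (13.7% and 7.89% of all). They were Jun rc_AA945867_at, Jun rc_AI175959_at, Jun rc_AA944014_at, Egr1 U75398_s_at, Egr1 rc_AI176662_s_at and Nr4a1 U17254_at. Overlap was counted on the deposited values only. The median difference of all tested probe sets there was -0.13, and 0.09 with each array scaled to one median. In right gel against sham arteries on day 1, 0 of 15 passed by limma (0.927% of all; 2 unadjusted, against 12.6%), with Jun rc_AA944014_at at 1.57 (SE 0.50, adjusted p = 0.166). That difference passed without the 4 tPA arrays (adjusted p = 0.00543). The highest right gel value of this probe set on day 1, 453.2, came from replicate 3, the array with the highest median intensity. In right tPA against sham arteries 0 of 15 passed by limma on day 1 (0.172% of all; 2 unadjusted, against 11.2%) and on day 4 (0.910% of all; 1 unadjusted, against 16.9%). Sham day 1 against intact arteries gave 0 calls of 15 by limma (0.944% of all; 2 unadjusted, against 10.7%). Between the days, limma called 0 of 15 in left tPA (1.15% of all; 2 unadjusted, against 13.7%), right gel (3.57% of all; 2 unadjusted, against 17.0%) and right tPA arteries (0.00% of all; 0 unadjusted, against 6.40%).

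Other genes of the same pathways were taken from lists by function, and their calls stand beside the share of all tested probe sets called. In left gel against sham arteries that share was 3.12% on day 1 and 19.2% on day 4, and in left tPA arteries 4.43% and 5.87%. Of 18 relatives (other AP-1, Egr, Nr4a and Btg genes), 9 were tested. On day 4 in left gel arteries 1 rose and 0 fell: Egr2, an Egr1 relative needed for myelin in Schwann cells (3.38, SE 0.62, adjusted p = 0.000213). In left tPA arteries of day 4 Egr2 rose (2.65, SE 0.62, adjusted p = 0.0136, and 3.56 without the 4 arrays that stand apart, 0.000111). Btg3, an antiproliferative relative of Btg2, rose with it (1.34, adjusted p = 0.0382, and 1.59 without those arrays, 0.0116), a call lost under median scaling (0.0585).

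The Egr2 injury difference was larger on day 4 than on day 1 by 3.91 (SE 0.91, adjusted p = 0.0109). In sham arteries Egr2 fell from day 1 to day 4 (-2.30, adjusted p = 0.0181). Fosl2, a Fos relative, rose there (1.66, adjusted p = 0.0305), and that call was lost under quantile normalization (1.37, 0.0901) and median scaling (1.40, 0.0533). The median of the 9 relatives was -0.18 in left gel against sham on day 4, where all tested probe sets had 0.02.

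Of 38 other early response genes, 26 were tested. On day 1, 0 rose and 1 fell in left gel against sham arteries: Ccn1, a secreted matricellular protein (-1.76, SE 0.45, adjusted p = 0.0249). In left tPA arteries 1 rose and 0 fell: Dusp5, a phosphatase of ERK (1.13, SE 0.32, adjusted p = 0.0337; 1.203 without the array that stands apart, 0.0206). The Dusp5 call was lost under quantile normalization (1.04, 0.055) and median scaling (0.84, 0.0793). The median of the list was -0.14 in left gel and 0.25 in left tPA arteries on day 1.

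On day 4, 3 of these 26 rose and 4 fell in left gel arteries, against the 19.2% called among all probe sets. They included the MAP kinase phosphatase Dusp1 (-1.26, adjusted p = 0.000599), the inhibitor of helix-loop-helix factors Id2 (-1.87, 0.00196) and Klf4, a zinc-finger factor (1.23, 0.00463). In left tPA arteries 2 rose and 0 fell. Klf4 rose by 1.18 (adjusted p = 0.0239, and 1.03 without the 4 arrays that stand apart, 0.0487). Dusp5 rose by 1.05 (adjusted p = 0.0289, and 1.15 without these arrays, 0.0137), a call lost under quantile normalization (0.89, 0.0716). Klf4 also rose over sham in the uninjured right arteries of day 4, with gel (1.22, 0.0109) and with tPA (1.46, 0.0169). The tPA difference was 1.49 without the 4 arrays that stand apart (0.071). Dusp1 fell in right gel arteries too (-1.06, 0.00746). These comparisons share the sham arrays, in which Klf4 fell from day 1 to day 4 (-1.41, 0.00399).

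Of 18 partners and targets of Myc, 11 were tested. On day 1, when Myc was called higher than sham in left tPA but not in left gel arteries, 0 of 11 passed by limma in either against sham. Nme1, a nucleoside diphosphate kinase, differed by 1.07 in left gel (adjusted p = 0.0815) and 0.77 in left tPA arteries (adjusted p = 0.176). On day 4, 4 rose and 1 fell in left gel arteries, against 19.2% of all probe sets. Nme1 rose by 2.03 (4.3e-05), the cyclin Ccnd1 by 2.46 (0.0019) and its kinase Cdk4 by 0.79 (0.0139), and the Cdk4 call was lost under median scaling (0.69, 0.0533).

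In left tPA arteries of day 4, 3 of the 11 rose and 0 fell. Nme1 rose by 1.41 (adjusted p = 0.0135, and 1.86 without the 4 arrays that stand apart, 0.000142) and Ccnd1 by 2.14 (0.0243, and 3.00 without them, 0.000341). Odc1, the polyamine synthesis enzyme, rose by 0.97 (0.037, and 1.097 without these arrays, 0.012), a call lost under median scaling (0.91, 0.0694). Nme1 rose over the same sham arrays in the uninjured right arteries of day 4 as well, by 1.70 with gel (0.000489) and 1.69 with tPA (0.00648). The tPA difference was 1.47 without the 4 arrays that stand apart (0.0409). Ccnd1 rose by 1.93 in right gel arteries (0.0272). Hspe1 of the same list fell in right gel against sham arteries of day 4 (-1.10, adjusted p = 0.018), a call lost under quantile normalization (-0.65, 0.0987). The list's median was 0.58 in left gel and 0.62 in left tPA arteries on day 4, and -0.03 and 0.02 on day 1. Of 16 genes of the MAP kinase cascade 5 were tested, and Mapk9, a JNK kinase that phosphorylates Jun, rose in left tPA arteries on day 4 (1.45, adjusted p = 0.0182). The difference was 1.92 without the 4 arrays that stand apart (0.000236).

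Probe sets of one gene did not vary together as a rule. Over the 40 arrays, the 12 pairs for one gene had r from -0.157 to 0.696 with a median of 0.28, and the 93 pairs for different genes had r from -0.438 to 0.632. The lowest was that of Jun rc_AA945867_at with Myc. All pairs share arrays, groups and scaling. For Fos X06769cds_g_at the genes most alike were Nfix (r = 0.717), S100a1 (0.713) and Psme1 (0.659). For Jun rc_AA945867_at they were Meox2 (0.715), Gstm5 (0.706) and Pcmtd1 (0.699), and for Egr1 U75398_s_at Lamb2 (0.851), Tgfb2 (0.845) and Ddr1 (0.844).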

How the data were processed

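The authors deposited 1 intensity per probe set and array (Affymetrix rat arrays), linear and already scaled; the software that summarised the probes is not given in the sources used here. RNA was biotin-labelled, per the labels' protocols. Values below 23.3, the 20th percentile of the table, were raised to it, and log2 values were taken. Of 8740 probe sets that are no controls, 2913 dim ones were left out and 5827 tested in limma 3.58.1 (R 4.3.3), 1 fit over all 11 groups adjusted by Benjamini-Hochberg and called under 0.05. The platform annotation gave 7006 probe sets 1 gene symbol, 308 several and 1426 none. Members were all probe sets with exactly 1 of the 8 symbols; other genes were named as listed or, for likeness, as the 3 with the highest r. Members and lists were chosen with earlier results of these data known. The procedure was tested on simulated data. Alternatives were quantile normalization, median scaling, other floors and filters, array weights, a replicate block, fits of only the groups compared, and leaving out arrays. Same-numbered arrays deviated together in every pair (r over 0.1) in 1 of 21 comparisons, right gel against sham on day 1 (0.117 to 0.284, 3 pairs), where the block left the count of members called at 0.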

Additional observations from a re-analysis of the deposited data

Results flagged for a closer look

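The Junb X54686cds_at intensity of sham day 4 replicate 1 was 59.7, while the other 5 arrays of that group lay from 137.7 to 182.5. On the log2 scale its gap to the nearest array was 0.748 of the group's range, above Dixon's limit for 6 samples. It was the only such array in 45 groups of values examined, and chance alone flags about 1 in 20.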

How the results depend on the processing

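No member's called difference changed sign under any alternative, and Myc in left tPA over sham arteries on day 1 stayed past the threshold wherever it was fitted; a filter leaving out the dimmer 50% of probe sets removes it. The counts of the 15 probe sets called moved as follows; the cause was not tested. Quantile normalization gave 0 for left gel against sham on day 1 (1 as reported), 1 on day 4 (2), 0 for left tPA against sham on day 4 (1), 0 for right gel against sham on day 4 (1), 0 for left gel and 0 for sham between the days (1 each), and 1 across the 11 groups (3). Median scaling gave 0 for left gel and 0 for sham between the days; it shifts all probe sets by 0.29 in left tPA against sham on day 1. No filter gave 0 for left gel against sham on day 1, and the 50% filter 1 for left tPA against sham on day 1 (2). A floor at the 40th percentile gave 1 for right gel against sham on day 1 (0) and 2 for sham between the days. Array weights gave 5 for left gel against sham on day 1, 2 for left tPA against sham on day 4, 1 for left against right gel on each day (0), 2 for sham day 1 against intact (0), 5 for left gel and 5 for sham between the days, 2 for the injury effect by day (0) and 11 across groups. The replicate block, where numbers mostly do not pair arrays, gave 0 for left gel against sham on day 1, 1 on day 4, 0 for right gel against sham on day 4 and 0 for sham between the days. Without the 4 tPA arrays that stand apart the counts were 2 for left gel against sham on day 1, 2 for left tPA against sham on day 4, 1 for left against right tPA on day 1 (0), 1 for right gel against sham on day 1, 1 for sham day 1 against intact, 2 for left gel and 2 for sham between the days, and 5 across groups. Fits of only the groups compared gave 3 for left gel against sham on day 1, 0 on day 4, 1 for left tPA against sham on day 1, 0 on day 4, 0 for right gel against sham on day 4, 1 for sham day 1 against intact and 2 for sham between the days. With 1 array left out, counts ranged from 0 to 0 for left gel against sham on day 1, 0 to 2 on day 4, 1 to 3 for left tPA against sham on day 1, 0 to 1 on day 4, 0 to 2 for right gel against sham on day 4, 0 to 1 for left gel and 0 to 2 for sham between the days, and 1 to 4 across groups; all other comparisons stayed at 0. With 3 arrays in most groups, the size of a difference alone did not decide a call. Egr1 AF023087_s_at passed at -0.79 in left gel against sham arteries on day 4 (limma, adjusted p = 0.0365). Jun rc_AA944014_at missed at 1.57 in right gel against sham arteries on day 1 (adjusted p = 0.166).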
